A study of Mus musculus with 2 samples.

Results

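The let-7 and miR-98 family was followed in exosomes, the small vesicles that cells release, from the serum of tumor-bearing mice. Its members were the mature miRNAs mmu-let-7a-5p, mmu-let-7b-5p, mmu-let-7c-5p, mmu-let-7d-5p, mmu-let-7e-5p, mmu-let-7f-5p, mmu-let-7g-5p, mmu-let-7i-5p and mmu-miR-98-5p. They were picked by the miRNA name that the array design gives to each spot, control spots excluded; the rule uses no measured value, but the family was chosen with earlier results of these data known. This gave 9 of the 1881 mouse miRNAs on the array. The study compared mice that carried Lewis lung carcinoma, a mouse lung cancer cell line (LLC group), with mice that received the same cells together with murine bone marrow mesenchymal stem cells (MSC+LLC group). All recipients were female C57BL/6 mice aged 6 weeks, per the study's methods, and the stem cells were a purchased C57BL/6 culture. In both groups 1000000 LLC cells carrying luciferase were injected under the skin, and blood was taken at a mean tumor volume of 200 mm3. Each group had 1 array, hybridized with Cy3-labelled RNA from 100 ng of total RNA, and how many mice stood behind an array was not given in the sources used here. The sample labels name serum and the study's text names plasma; the labels are followed. The arrays shared a slide and a scan, and an array's place there cannot be told apart from its group.

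The let-7 miRNAs are among the most conserved animal miRNAs, and they accumulate as cells leave the stem-like state. In cancer they are known as a tumor suppressor family, because they repress mRNAs of growth regulators such as Ras proteins, Myc and Hmga2. The RNA-binding proteins Lin28a and Lin28b block the maturation of let-7 precursors and are themselves let-7 targets. A miRNA finds its targets mainly through its seed, bases 2 to 8 from the 5′ end, and miRNAs with the same seed are placed in the same family.

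The sequences are shown because the members share their seed and differ only downstream of it, apart from the first base of let-7d-5p, which bears on how well an array can tell them apart. They come from RefSeq (assembly GRCm38.p6), run 5′ to 3′, and carry the seed in capitals.
mmu-let-7a-5p: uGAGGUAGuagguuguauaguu
mmu-let-7b-5p: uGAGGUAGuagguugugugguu
mmu-let-7c-5p: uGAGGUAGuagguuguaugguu
mmu-let-7d-5p: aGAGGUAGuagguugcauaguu
mmu-let-7e-5p: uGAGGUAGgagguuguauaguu
mmu-let-7f-5p: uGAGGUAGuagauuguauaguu
mmu-let-7g-5p: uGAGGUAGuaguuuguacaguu
mmu-let-7i-5p: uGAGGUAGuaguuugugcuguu
mmu-miR-98-5p: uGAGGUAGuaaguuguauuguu

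All 9 members are 22 bases long. Counted from 1 at the 5′ end of let-7a-5p, let-7c-5p differs from it by A19G, let-7e-5p by U9G and let-7f-5p by G12A. The members let-7b-5p (A17G and A19G), let-7d-5p (U1A and U16C), let-7g-5p (G12U and U18C) and miR-98-5p (G11A and A19U) differ by 2 substitutions, and let-7i-5p by 4 (G12U, A17G, U18C and A19U). Among the 36 pairs of members, 4 pairs differ by 1 base and 10 by 2, and the most distant pair differs by 6. The array probe sequences were not used here, and cross-hybridization between members was not tested.

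The genes lie in several places of the mouse genome (GRCm38.p6, whereas the array design names the build mm9). Mirlet7a-1 (chr13:48538239-48538260), Mirlet7f-1 (chr13:48537889-48537910) and Mirlet7d (chr13:48536078-48536099) follow each other on the minus strand. Mirlet7c-2 (chr15:85706616-85706637) and Mirlet7b (chr15:85707325-85707346) lie on the plus strand inside the long noncoding RNA gene Lncppara. Mirlet7f-2 (chrX:151912353-151912374) and Mir98 (chrX:151913229-151913250) lie on the plus strand inside Huwe1, which encodes a ubiquitin ligase. Mirlet7g (chr9:106178846-106178867, plus strand) lies inside Wdr82, and Mirlet7e (chr17:17830366-17830387, plus strand) inside Spaca6. Mirlet7c-1 (chr16:77599672-77599693, plus strand) and Mirlet7i (chr10:122985698-122985719, minus strand) lie in no gene of the RefSeq table other than a miRNA gene, and the same holds for the genes on chromosome 13. Since let-7c-5p and let-7f-5p each come from 2 listed genes with the same mature sequence, an array cannot say which gene gave the RNA. The same holds for let-7a-5p, which is also made from Mirlet7a-2, a gene for which the sequence table lists the 3p arm.

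The signal of a spot is given in intensity units, the background-subtracted brightness on a linear scale. Detection of a probe required that over 50% of its spots, outliers left out, stood well above background. The signals of an array were expressed relative to their 75th percentile over probes seen on both arrays, which was 2883 intensity units for LLC and 250.3 for MSC+LLC. This scaling raised each log2 ratio of MSC+LLC over LLC by 3.53. After it, the lowest detected probe of the MSC+LLC array (18.8 intensity units) corresponds to 216.5 units on the LLC array, so a probe below that LLC signal could not be seen to fall. Errors of intensities are SDs over the spots of a probe on the same array. For a log2 ratio, the relative SDs of a probe on the LLC and MSC+LLC arrays were combined as the root of their summed squares. The result was put on the log2 scale. For a member, this spot SD is the root mean square over its probes detected on both arrays, not the error of their mean. A combined spot SD joins the spot SDs of the compared members, again as the root of summed squares. All these errors are technical, and with 1 array per group no test was possible and no p-value is given. The arrays received the same input of total RNA, so the scaled ratios give the level of a miRNA relative to other miRNAs. They do not give its amount in serum, and neither vesicle number nor miRNA per vesicle was tested.

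Most of the family was lower in MSC+LLC exosomes relative to the other miRNAs. The array held 18 probes for the family, 2 per member with 15 spots each. All 9 members were detected on the LLC array (26.7% of all miRNAs were), and 7 of 9 were detected on the MSC+LLC array (13.7% of all miRNAs) and on both (12.8% of all miRNAs). The scaled log2 ratios of these 7 members had a median of -1.70, which is 3.24-fold lower in MSC+LLC, and ran from -2.23 for let-7f-5p to -0.60 for let-7b-5p. All 7 were below 0, as were 42.9% of the 240 miRNAs measured on both arrays. Of the members, 6 of 7 were at least 2-fold lower, compared with 11.2% of the 240. At 4-fold, let-7f-5p alone was lower, compared with 2.92% of the 240. No member was at least 2-fold higher, compared with 27.1% of the 240. The other 233 miRNAs had a median of 0.18 with quartiles of -0.40 and 1.22, and the family median minus theirs was -1.88. The members make up 22.2% of the 27 miRNAs at least 2-fold lower. The detection limit bears on this comparison. A probe under 216.5 units in LLC could be among those detected on both arrays only with a scaled log2 ratio of 0 or above. All 13 family probes detected on both arrays exceeded that signal in LLC. How far this raised the shares and medians of the other miRNAs was not tested. Before scaling, the 13 family probes detected on both arrays were 17.1- to 54.1-fold dimmer in MSC+LLC. After scaling, the spots of the arrays did not overlap for 12 of these 13 probes, and they did for the dimmer let-7b-5p probe. Over all 405 probes detected on both arrays, every LLC spot lay above every MSC+LLC spot for 24.4%.

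**Figure D1:**
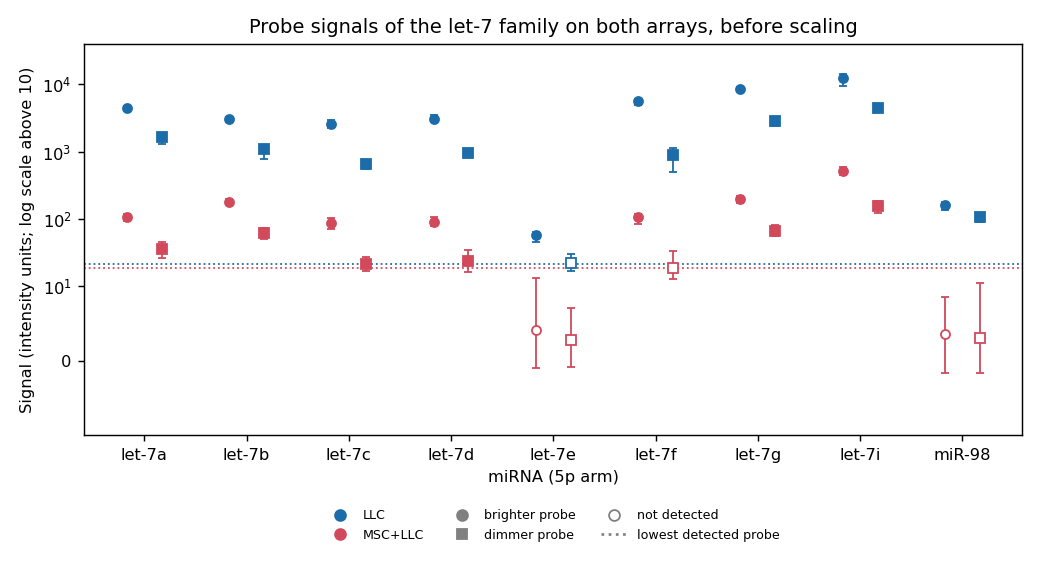
Signal of each family probe before scaling, in intensity units on an axis that is logarithmic above 10 and linear below, for the LLC array (blue) and the MSC+LLC array (red). Points are means over spots, bars run from the lowest to the highest spot, open points were not detected and dotted lines mark the lowest detected probe of each array. Both probes of let-7e and of miR-98 are open on the MSC+LLC array, where the other members have at least 1 filled point.

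The 3 members encoded side by side on chromosome 13 were all lower. For let-7a-5p, whose mature sequence is that of the worm miRNA after which the family is named, the brighter probe gave 4525 ± 122 intensity units (SD, n = 15 spots) in LLC and 106 ± 7.45 (n = 14 spots) in MSC+LLC. Its dimmer probe gave 1625 ± 130 and 35.3 ± 5.84 (n = 15 spots each). The 2 probes had scaled log2 ratios of -1.89 and -1.997, and their mean was -1.94 ± 0.20 (spot SD), or 3.84-fold lower. For either probe, the spots of the arrays did not overlap, before or after scaling.

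The brighter probe of let-7f-5p, which comes from chromosome 13 and from the X chromosome, gave 5662 ± 364 intensity units (n = 14 spots) in LLC and 105 ± 8.36 (n = 15 spots) in MSC+LLC. Its scaled log2 ratio was -2.23 ± 0.15, or 4.69-fold lower. The dimmer probe gave 882 ± 212 in LLC and 18.2 ± 5.49 in MSC+LLC, where 40% of its spots were well above background and it did not count as detected. Against the lowest detected probe it was at least 4.07-fold lower after scaling. With a CV of 24.1%, its LLC spots varied more than those of any other family probe detected there. The ratio of let-7f-5p thus rests on 1 probe.

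For let-7d-5p, the brighter probe gave 3080 ± 178 intensity units in LLC and 89.3 ± 9.57 in MSC+LLC (n = 15 spots each). The dimmer probe gave 951 ± 54.0 (n = 15 spots) and 23.5 ± 4.78 (n = 14 spots, 78.6% of them well above background). The probe ratios were -1.58 and -1.81 and the member's log2 ratio -1.70 ± 0.25, the widest spot SD among the 7.

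The members of the Lncppara locus differed from each other more. The brighter probe of let-7c-5p, which is also made on chromosome 16, gave 2581 ± 191 intensity units in LLC and 86.2 ± 8.92 in MSC+LLC. Its dimmer probe gave 657 ± 60.6 and 21.5 ± 3.29, with 66.7% of the MSC+LLC spots well above background. The probe ratios were -1.38 and -1.41 (n = 15 spots throughout), and the log2 ratio of let-7c-5p was -1.39 ± 0.22, or 2.63-fold lower. The neighbor let-7b-5p gave 3063 ± 143 in LLC and 179 ± 10.9 in MSC+LLC with its brighter probe, and 1086 ± 128 and 61.0 ± 6.45 with its dimmer one (n = 15 spots each). Its probe ratios were -0.57 and -0.63, and its log2 ratio of -0.60 ± 0.18 (1.51-fold lower) was the only one of the 7 within 2-fold.

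Of the 2 members encoded apart from any other let-7 gene and measured on both arrays, let-7g-5p, made inside Wdr82, gave 8636 ± 230 intensity units (n = 12 spots) in LLC and 194 ± 12.96 (n = 14 spots) in MSC+LLC with its brighter probe. The dimmer probe gave 2844 ± 217 (n = 14 spots) and 65.4 ± 8.77 (n = 15 spots). The probe ratios of -1.95 and -1.92 lay within 0.031 of each other, the closest of all members, and the log2 ratio of let-7g-5p was -1.93 ± 0.17, or 3.81-fold lower. The brighter probe of let-7i-5p gave 12410 ± 1229 in LLC and 522 ± 51.7 in MSC+LLC, and its dimmer probe 4532 ± 259 and 157 ± 18.0 (n = 15 spots each). The probe ratios of let-7i-5p, -1.05 and -1.32, were the farthest apart (0.28), and its log2 ratio was -1.19 ± 0.19, or 2.27-fold lower.

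The members let-7e-5p and miR-98-5p had no signal well above background in MSC+LLC. For let-7e-5p, made inside Spaca6, the brighter probe gave 57.8 ± 5.85 intensity units in LLC and 4.04 ± 3.84 in MSC+LLC, where 0% of its spots were well above background. The dimmer probe had 7 of 14 LLC spots well above background, at a mean of 21.9 ± 3.81, and was detected on neither array. For miR-98-5p, the Huwe1 member, both probes were detected on the LLC array, at 158 ± 12.7 and 107 ± 9.29, and neither on the MSC+LLC array, at 3.58 ± 3.62 and 2.99 ± 3.60 (n = 15 spots each). All these LLC signals were under the 216.5 units that a probe had to exceed to be seen to fall, so no scaled fold is given. Before scaling, let-7e-5p was at least 3.08-fold dimmer on the MSC+LLC array, and the miR-98-5p probes at least 8.39- and 5.70-fold.

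The ratios of the members spread over 1.63 log2 units from let-7f-5p to let-7b-5p, compared with a combined spot SD of 0.23 for this pair. From the lowest ratio upward the order was let-7f-5p, let-7a-5p, let-7g-5p, let-7d-5p, let-7c-5p, let-7i-5p and let-7b-5p. The step from let-7f-5p to let-7a-5p (0.29, combined spot SD 0.25) and the step from let-7i-5p to let-7b-5p (0.59, combined spot SD 0.26) exceeded the spread over spots. The 4 steps between let-7a-5p and let-7i-5p did not, with 0.011 between let-7a-5p and let-7g-5p, 0.23 from there to let-7d-5p, 0.30 on to let-7c-5p and 0.21 on to let-7i-5p. In the 6 members with 2 probes detected on both arrays, the probes of a member differed by 0.031 to 0.28 (median 0.084), and both lay on the same side of 0 in all 6.

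**Figure D2:**
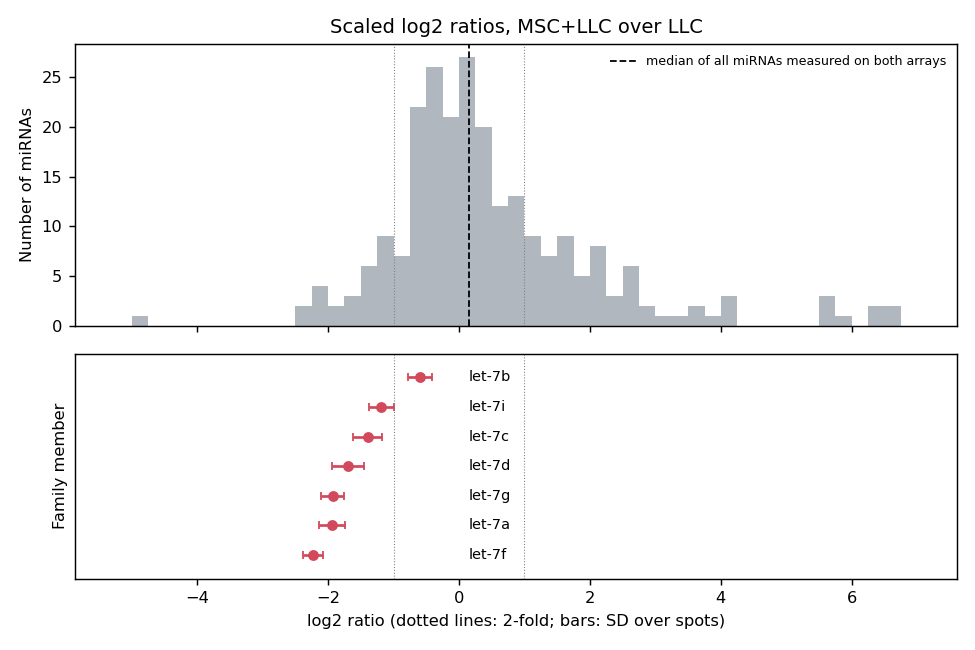
Upper panel, number of miRNAs by scaled log2 ratio of MSC+LLC over LLC for the 240 miRNAs measured on both arrays, with the median (0.15) dashed and 2-fold dotted. Lower panel, the 7 family members measured on both arrays on the same axis, with the spot SD of each log2 ratio as bars. The members run from -2.23 for let-7f to -0.60 for let-7b, which alone lies inside 2-fold.

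Within all 240 miRNAs the members took ranks 5 (let-7f-5p), 8 (let-7a-5p), 9 (let-7g-5p), 10 (let-7d-5p), 15 (let-7c-5p), 19 (let-7i-5p) and 47 (let-7b-5p), counted from the lowest ratio. A lower ratio than the family median was found for 9 of the 240, or 3.75%. Besides let-7a-5p, let-7f-5p and let-7g-5p these were mmu-miR-6360, mmu-miR-26b-5p and both arms of miR-144 and of miR-142a, which are named after their values were seen.

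Members that differ by a single base differed in ratio. From let-7a-5p to let-7c-5p (A19G) the log2 ratio was higher by 0.55, beyond the combined spot SD of 0.30. From let-7c-5p to let-7b-5p (A17G) it was higher again by 0.79, with a combined spot SD of 0.29. From let-7a-5p to let-7f-5p (G12A) the difference was -0.29, with a combined spot SD of 0.25. The remaining single-base pair, let-7a-5p and let-7e-5p (U9G), could not be compared because let-7e-5p had no ratio.

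Base composition was looked at after the ratios were known. The share of G and C in the sequences printed above was 31.8% for let-7f-5p and miR-98-5p, 36.4% for let-7a-5p and let-7g-5p, 40.9% for let-7c-5p, let-7d-5p, let-7e-5p and let-7i-5p, and 45.5% for let-7b-5p. Across the 7 members with a ratio, a higher share went with a higher log2 ratio (Pearson's r = 0.93, Spearman's rho = 0.95). With the brighter probes alone Spearman's rho was 0.95 over 7 members, and with the dimmer probes alone 0.93 over 6. These points share both arrays, the scale factor and most of their sequence, so the coefficients describe these members and carry no test. Of 190 miRNAs outside the family with a ratio and a sequence, the same coefficients were 0.13 and 0.26. Spearman's rho between the LLC signal and the ratio was -0.29 over the 7 members and -0.40 over the 190.

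Among the 57 outside miRNAs whose G and C share lay in the members' range, from 31.8% to 45.5%, the median log2 ratio was -0.40 (quartiles -0.74 and 0.14). Of these, 10 (17.5%) were at least 2-fold lower, and 3 were at or below the family median of -1.70. Above that range, 130 miRNAs had a median of 0.26, with 5 (3.85%) at least 2-fold lower and 0 at or below the family median. Below the range lay 3 miRNAs, miR-144-3p and miR-144-5p at -2.33, which is lower than the family median, and miR-32-3p at 2.27. The members with a ratio lay below the median of the 57, which pools the whole range and is not matched to each member's share. The part of base composition in the members' ratios was not tested.

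**Figure D3:**
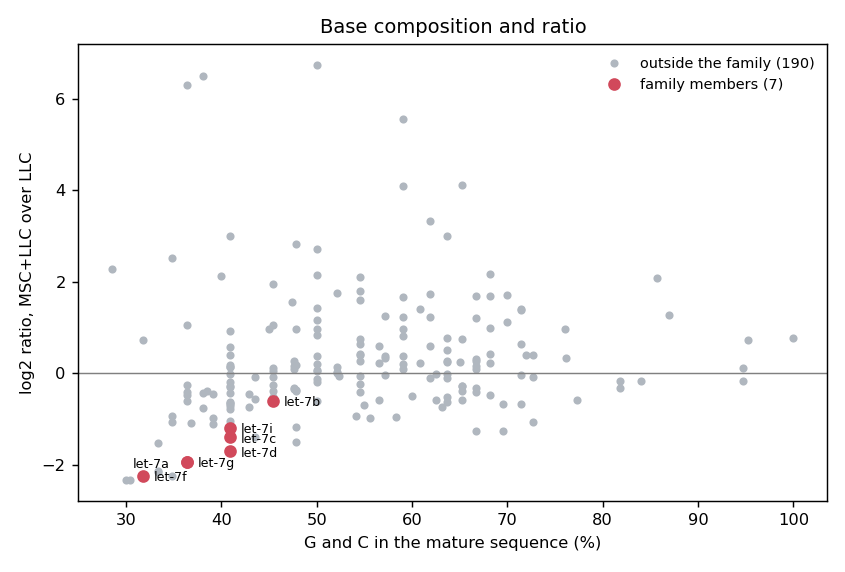
Share of G and C in the mature sequence (%) against the scaled log2 ratio of MSC+LLC over LLC, for 7 family members (red) and 190 other miRNAs measured on both arrays (gray); each point is a miRNA. The members climb from let-7f at 31.8% to let-7b at 45.5%, all below 0, while the other miRNAs scatter widely at each share.

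How far the family was lower depended on how the arrays were scaled. The family median was -1.66 after scaling by the median of the detected probes, with 6 of 7 members at least 2-fold lower (10.8% of all 240). It was -1.96 with the family's own probes left out of the 75th percentile (6 of 7; 14.2% of all) and -1.99 after quantile normalization (6 of 7; 17.1%). With the 75th percentile of all probes it was -2.91, and all 7 members were at least 2-fold lower, as were 52.9% of the 240. The arrays also carry spike-ins, RNAs added in fixed amounts. Scaled on them, the family median was -3.91 with the labelling spike-ins (all 7 members; 75% of the 240), -4.58 with all 4 spike-ins (all 7; 85%) and -5.26 with the hybridization spike-ins (all 7; 90.4%). Without scaling it was -5.22 (all 7; 90.4%). Under the last 5 of these, over 50% of the 240 miRNAs were lower, so the members' count there says little about the family. The difference between the family median and that of the other 233 miRNAs was -1.88 under every scaling by a single factor, as it must be, and -1.90 after quantile normalization. It did change with other processing. It was -1.30 after normexp background correction of the median pixel brightness, followed by quantile normalization. It was -2.27 when detection rested on the scanner software's flag for a positive and significant signal, and -2.71 with no filter on dim probes. Under both of these looser detection rules, let-7e-5p and miR-98-5p enter as well. In the deposited table with undetected miRNAs kept at a placeholder, the difference was -0.69.

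**Figure D4:**
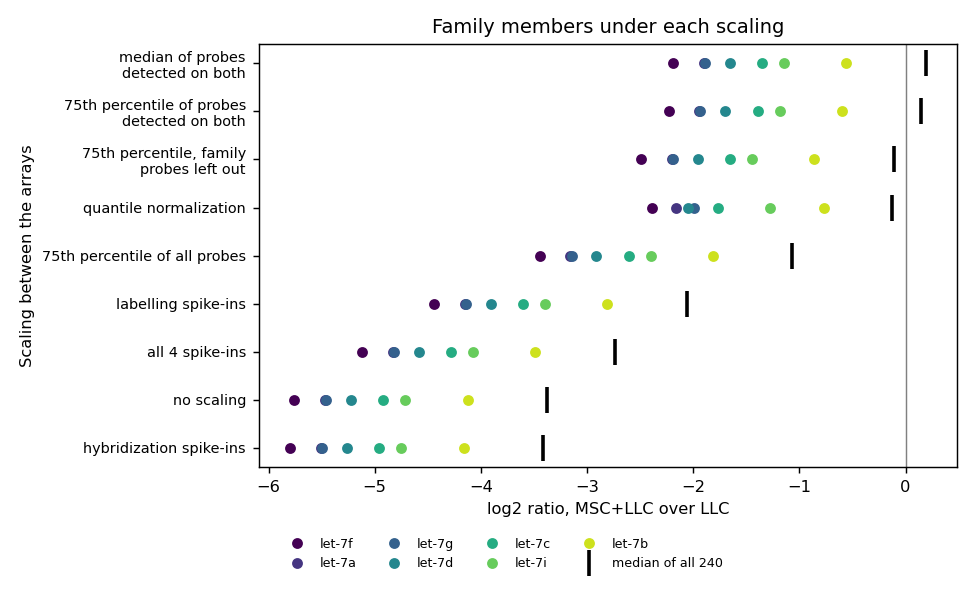
Log2 ratio of MSC+LLC over LLC for the 7 family members measured on both arrays under 9 scalings between the arrays (no scaling included), with the median of all 240 miRNAs as a black bar. The members keep to the left of the bar and of 0 under each scaling, and let-7f is the lowest and let-7b the highest in each. Except under quantile normalization, a scaling moves all members and the bar by the same amount, so their order is fixed.

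The members' directions held in other processing as well. Each of the 7 members was below 0 in all 20 settings tried, but the share of all miRNAs below 0 ran from 32.0% with no filter on dim probes to 94.6% with the hybridization spike-ins, and where it is high the sign says little about the family. Scaling by a single factor cannot change the order of the members, so those settings only repeat it. Among the 9 members, let-7f-5p had the lowest ratio in 19 of the 20 settings. The exception was the deposited table with undetected miRNAs kept at their placeholder, where miR-98-5p was lowest. The highest was let-7b-5p, except in 2 settings with looser detection that gave let-7e-5p a value. There let-7e-5p stood at -0.46 with the flag for a positive and significant signal and at 0.11 with no filter on dim probes. Both values came from MSC+LLC signals not well above background.

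The authors' deposited values, which hold a sum over probes on a log2 scale, put the members on the same side of 0. The difference of MSC+LLC minus LLC in that table was -2.52 for let-7f-5p, -2.25 for let-7g-5p, -2.23 for let-7a-5p and -1.95 for let-7d-5p. It was -1.70 for let-7c-5p, -1.43 for let-7i-5p and -0.90 for let-7b-5p. The entries of let-7e-5p and miR-98-5p on the MSC+LLC array are the placeholder of an undetected miRNA, a summed signal of 0.1 intensity units, so their differences of -4.19 and -5.92 are no measurements.

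The other products of the let-7 precursors were looked at on the same arrays. The array held 11 opposite (3p) arms with 41 probes, among them those of let-7b, let-7d and miR-98. None of the 11 was detected on either array, and the highest probe mean was 13.8 intensity units in LLC and 14.2 in MSC+LLC. The array also held the related mmu-let-7j, mmu-let-7k and mmu-miR-1961. The last 2 carry the family's seed but were detected on neither array. The miRNA let-7j, whose seed differs, was detected on the LLC array only, at 38.6 ± 5.46 intensity units against 13.2 ± 3.82 on the MSC+LLC array (n = 15 spots each). These are signals before scaling. The LLC signal was under 216.5 units, so let-7j could not have been seen to fall after scaling.

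Several let-7 genes are transcribed along with members of the miR-99/100 and miR-125 families. Of 5 such miRNAs, miR-125b-5p alone was measured on both arrays, at 861 ± 80.8 intensity units (n = 15 spots) in LLC and 147 ± 11.51 (n = 14 spots) in MSC+LLC with its brighter probe. Its log2 ratio, scaled on the 75th percentile of probes detected on both arrays, was 0.97 ± 0.18. That is on the other side of 0 from all 7 family members. The side of 0 depends on the scaling, since the 75th percentile of all probes shifts every ratio by -1.21. The distance of miR-125b-5p from the members does not change with such a factor. The brighter probe of miR-99a-5p gave 192 ± 17.1 on the LLC array and was not detected on the MSC+LLC array (18.9 ± 5.49). That of miR-100-5p gave 189 ± 15.8 and was not detected there either (16.1 ± 2.65). Both LLC signals were under 216.5 units, so neither miRNA could have been seen to fall after scaling. The other 2, miR-99b-5p and miR-125a-5p, were detected on neither array.

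Serum exosomes hold miRNAs of many cell types, and lists of blood, liver and mesenchymal miRNAs were read beside the family. Of the red cell miRNAs, all 4 on the array were detected on both arrays, and their ratios split. The log2 ratio was 1.06 ± 0.14 for miR-451a and 1.66 ± 0.21 for miR-486a-5p, and -2.33 for both miR-144-3p and miR-144-5p. Their summed scaled signal was 56.4 in LLC and 112.3 in MSC+LLC, in units of the 75th percentile. All probes of a list entered its sum, detected or not, and the brightest probes weigh most. In LLC the brighter miR-451a probe gave 67741 of the list's 162735 intensity units before scaling. The sums of this and the other lists are thus no measure of a cell type's share. Of 6 leukocyte and platelet miRNAs, all were seen in LLC and 4 on both arrays, with -2.25 ± 0.31 for miR-142a-3p, -2.12 ± 0.34 for miR-142a-5p, -0.51 ± 0.19 for miR-126a-3p and 0.14 ± 0.17 for miR-223-3p. The brighter probes of the other 2, miR-150-5p (185 ± 14.9 intensity units) and miR-155-5p (50.4 ± 4.46), were under 216.5 units in LLC and not detected in MSC+LLC. The list's sums were 11.6 and 11.2. Of 3 liver miRNAs, 2 were measured on both arrays, miR-122-5p at 0.78 ± 0.20 and miR-192-5p at -0.32 ± 0.14, with sums of 2.48 and 2.39, and miR-194-5p was detected in LLC only, at 103 ± 11.3 intensity units. Of 5 mesenchymal miRNAs, 2 were measured on both arrays, miR-199a-3p at 0.57 ± 0.21 and miR-214-3p at 0.82 ± 0.32, miR-143-3p was detected in LLC only, at 159 ± 12.7 intensity units, and miR-145a-5p and miR-199a-5p were detected on neither. The sums of the mesenchymal list were 0.591 and 0.867. The LLC signals of miR-194-5p and miR-143-3p were also under 216.5 units, so neither could have been seen to fall after scaling. The miR-142a and miR-144 arms had lower ratios than the family median. With this scaling, miR-451a, miR-486a-5p, miR-223-3p, miR-122-5p, miR-199a-3p and miR-214-3p lay above 0. The ratio of miR-223-3p (0.14) was just under the median of all miRNAs measured on both arrays (0.15). The part of any cell type in the family's ratios was not tested.

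Over the 2 arrays, the miRNAs outside the family nearest to its median of -1.70 were miR-3470a at -1.35 ± 0.10, miR-26b-5p at -2.15 ± 0.23 and miR-20b-5p at -1.17 ± 0.24. They were taken from 140 miRNAs with at least 2 probes detected on both arrays, by the distance of the log2 ratio. With 1 ratio per miRNA, likeness here means only a similar value.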

How the data were processed

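Serum exosomal RNA was hybridized to 1 Agilent mouse miRNA array per group, and the sample titles gave the groups. The deposited scanner files hold linear intensity per spot, which the authors extracted with Feature Extraction, background-subtracted and not scaled between arrays. The version is 11.5.1.1 in the file headers and 10.7 in the submitters' processing notes. The deposited table of the series holds log2 values made by the authors with GeneSpring GX 11.0. Set against the scanner files, each of its columns equals log2 of the summed gene signal minus a constant, 7.02 for LLC and 3.48 for MSC+LLC, and undetected miRNAs stand at a signal of 0.1. How the constant was chosen was not given in the sources used here.

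Control spots and outlier spots were left out (of the 270 family spots per array, 6 on LLC and 3 on MSC+LLC were outliers), and no spot was saturated. Spots of a probe were averaged on the linear scale, each array was divided by its 75th percentile over probes detected on both arrays, and log2 ratios of probes detected on both were averaged per miRNA. A probe detected on 1 array only was set against the lowest detected probe of the other array, or its own signal there if higher, as a bound, and no bound under 1-fold is given. The number of arrays limits the precision. The family, the related lists (opposite arms, other let-7 or same-seed miRNAs, clustered partners), the cell type lists and the rule for the most alike miRNAs were chosen with earlier results of these data known. List members were named where detected on at least 1 array, and let-7k, miR-1961, miR-99b-5p, miR-125a-5p, miR-145a-5p and miR-199a-5p were named after their values were seen, as were miR-32-3p and the miRNAs below the family median. Sequences were matched by name to RefSeq (GRCm38.p6), which gave a mature sequence for 1608 of 1881 miRNAs. The entry for the let-7a-2 precursor lists its 3p arm.

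The alternatives were 8 other scalings, other detection rules, outlier spots kept, other summaries of spots and probes, and the deposited values. Another was normexp (offset 50) on each spot's median pixel brightness, followed by quantile normalization between the arrays. Fold thresholds of 1.5 and 4 were tried too. The deposited values with undetected miRNAs at 0.1 and the split of the base composition by probe were added after seeing the data. The functions were tested on simulated data. The computations used R 4.3.3 (limma 3.58.1) and Python 3.11.15 (matplotlib 3.10.9, scipy 1.17.1, pandas 2.3.3, numpy 2.4.6).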

Additional observations from a re-analysis of the deposited data

How the results depend on the processing

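The family median log2 ratio of -1.70 kept its direction in every alternative tried. It moved by more than the spread over spots to -1.96 with the family's probes left out of the scaling, -1.99 after quantile normalization, -2.91 when all probes entered the 75th percentile, -3.91, -4.58 and -5.26 with the labelling, all 4 and the hybridization spike-ins, and -5.22 without scaling. It was -1.35 after normexp with quantile normalization and -1.48 when all spots had to be well above background. It was -1.95 in the deposited table and -2.23 in that table with undetected miRNAs at 0.1. The share of miRNAs below the family median left its exact 95% binomial interval (1.73% to 6.999%) only in that last setting. There it was 41.2%, and 612 miRNAs enter, those undetected on 1 array with a fixed value. Scaling by a single factor cannot change this share, so those settings do not probe it. The miRNAs share both arrays, so the interval is a yardstick and no test. At a 4-fold threshold, 1 of 7 members was lower (2.92% of all 240 miRNAs). Of the single members' values, 65 moved by more than their spot SD and 68 did not. No paired analysis was possible because a single array stands for each group, and for the same reason no array could be left out. The MSC+LLC signal limits the family's dim members most, since let-7e-5p and miR-98-5p could not have been seen to fall after scaling.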
